A study of Sus scrofa with 36 samples.

Results

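The adenosine A1 receptor gene ADORA1 and the somatostatin receptor genes SSTR1 and SSTR3 were described across feeding groups and set codes in piglet hippocampus. The 3 genes were found among 6765 genes that a probe set names alone, and 5 of the 23999 probe sets on the array carried their symbols. A probe set is a group of short probes on the array that is summarised to 1 level per sample. ADORA1 had 1 probe set and the somatostatin receptors had 2 each, and the probe set with the highest mean over all arrays stood for its gene. The genes were chosen by the dose differences measured on these same arrays, ADORA1 for its difference at the medium and high dose and SSTR1 and SSTR3 for theirs at the high dose. The dose differences of these genes are therefore given as a description, without a test.

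Hippocampal RNA was measured on Affymetrix porcine arrays, 1 array for each of 36 male Landrace×Large White piglets killed at postnatal day 38. The piglets entered the study at day 3 and were fed a pig milk replacer with its basal content only (control, n = 12), with 0.6 g/L lactoferrin (medium dose, n = 12) or with 1.2 g/L lactoferrin (high dose, n = 12). Lactoferrin is an iron-binding glycoprotein of milk, and the labels call the control diet basal without giving an amount. The sample descriptions also hold a code that divides the arrays into 5 sets (S1 to S5 below). What the code stands for is not stated, and S1 held no medium-dose sample.

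All 3 receptors are membrane proteins that couple to inhibitory G proteins of the Gi/o class, which lower cyclic AMP, open inwardly rectifying potassium channels and close presynaptic calcium channels. The adenosine A1 receptor senses adenosine that is released or formed outside cells during activity, and in the hippocampus it is known for damping glutamate release. Somatostatin is a peptide of inhibitory interneurons, and its receptors reduce excitability of the cells that carry them. SSTR3 protein is known in rodents for its place in the primary cilium of neurons, and SSTR1 is known also as an autoreceptor on somatostatin neurons.

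Values were log2 levels from RMA, which subtracts background, brings arrays to a common distribution and combines the probes of a set, and each deposited level was rounded to 0.1. Array medians lay between 6.6 and 6.7. Of 20 listed neuron markers 11 could be measured above the filter used for testing, and their mean lay between 10.59 and 11.69 on the arrays. Of 11 hippocampal and forebrain markers only RGS14 could be measured, a signalling regulator that marks the CA2 field in mice, and it lay between 8.2 and 10.2. High-dose replicate 2 stood apart, with the lowest mean correlation with the other arrays (0.980, against a median of 0.991), the highest oligodendrocyte marker mean (12.13) and the lowest neuron marker mean (10.59). In tissue RNA, fewer cells of a type and less RNA per cell cannot be told apart. Nothing in the labels ties samples to litters or pens. Precision is limited by how many arrays there are.

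ADORA1 was highest in the medium-dose group, with the high-dose group between it and control. In the control group the level of its probe set (gene ID 606743) ran from 8.0 to 8.7 with a median of 8.25. In the medium-dose group it ran from 8.2 to 8.7 with a median of 8.5, and in the high-dose group from 8.1 to 8.7 with a median of 8.35. All 3 groups overlapped and shared their highest value, but 11 of 12 medium-dose samples and 9 of 12 high-dose samples lay above the control median. The means were 8.27 ± 0.18 in control, 8.48 ± 0.15 at the medium dose and 8.38 ± 0.17 at the high dose (SD, n = 12 each). With the set code as a block in limma, a linear model fitted over all probe sets, the medium dose differed from control by 0.25 on the log2 scale (SE 0.07), or 1.19-fold. The high dose differed from control by 0.10 (SE 0.06), or 1.07-fold, and from the medium dose by -0.15 (SE 0.07). Between group means the step from control to medium dose was larger than the SD of either group, whereas the steps between high dose and either of the others were smaller than the SDs.

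SSTR1 lay higher in the high-dose group than in both others. Its level (gene ID 397004) in controls ran from 4.7 to 5.3 with a median of 4.95. At the medium dose it ran from 4.7 to 5.1 with a median of 5.0, and at the high dose from 5.0 to 5.3 with a median of 5.1. No high-dose sample lay below 5.0, so 12 of 12 were above the control median, but control samples reached the same highest value. At the medium dose 10 of 12 were above the control median too, although the means of these groups were equal. The means were 4.98 ± 0.18 in control, 4.98 ± 0.14 at the medium dose and 5.12 ± 0.13 at the high dose (SD, n = 12 each). The fitted difference was 0.15 (SE 0.06), or 1.11-fold, for high dose minus control, -0.03 (SE 0.06) for medium dose minus control and 0.17 (SE 0.06) for high minus medium dose. Steps between the high-dose mean and the other means were close to the SDs of single arrays.

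SSTR3 had the smallest spread of group means. In controls its level (gene ID 396643) ran from 5.5 to 6.0 with a median of 5.7, at the medium dose from 5.5 to 5.9 with a median of 5.75, and at the high dose from 5.6 to 6.1 with a median of 5.8. The groups overlapped over most of their range, and 10 of 12 high-dose samples lay above the control median. The means were 5.73 ± 0.14 in control, 5.73 ± 0.11 at the medium dose and 5.83 ± 0.12 at the high dose (SD, n = 12 each). The fitted difference was 0.10 (SE 0.05), or 1.07-fold, for high dose minus control, 0.01 (SE 0.06) for medium dose minus control and 0.09 (SE 0.06) for high minus medium dose. Each of these is below the SD of the groups. Control and medium-dose levels of both somatostatin receptors thus differed by 0.03 or less, where ADORA1 had its largest difference.

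**Figure D1:**
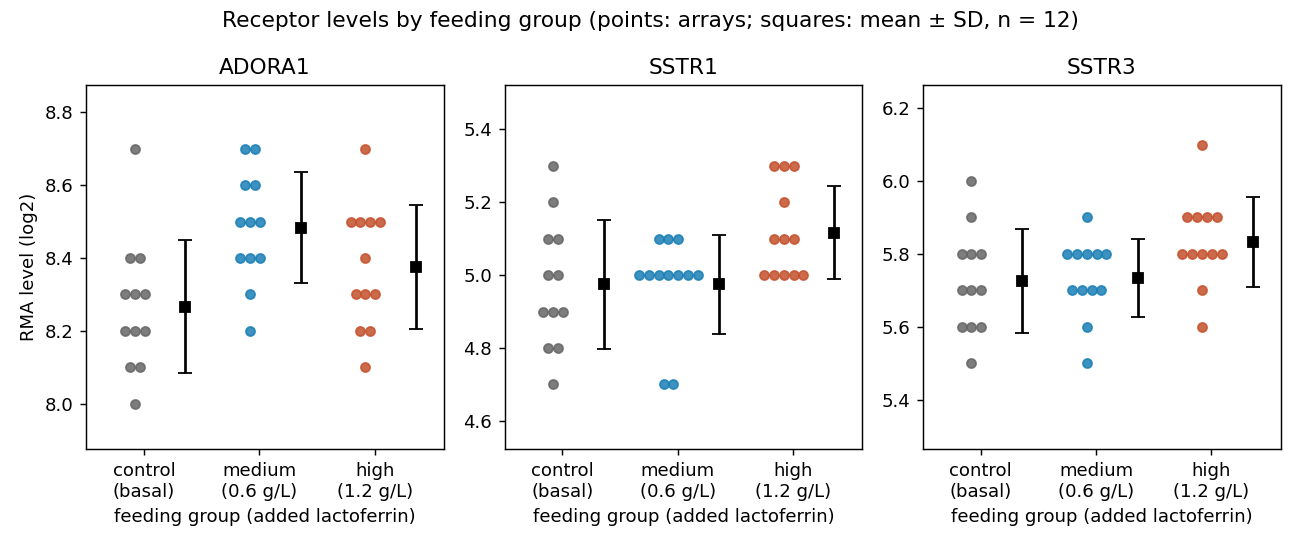
Log2 RMA level (y axis, each panel spanning 1 log2 unit) of ADORA1, SSTR1 and SSTR3 by feeding group (x axis), with a point for each of 12 arrays per group and the mean ± SD as a square with bars. ADORA1 sits highest at the medium dose (8.48, against 8.27 in control), and SSTR1 and SSTR3 sit highest at the high dose (5.12 and 5.83), with overlapping groups in every panel.

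In limma none of 18006 probe sets passed an adjusted p of 0.05 (Benjamini-Hochberg) in medium dose minus control (0% called), high dose minus control (0% called) or high minus medium dose (0% called), the receptors included. At an unadjusted p under 0.05 there were 6.93% of the probe sets in medium dose minus control, 4.94% in high dose minus control and 5.98% in high minus medium dose. Both dose contrasts use the same 12 control samples, so an array that is low or high among the controls moves both.

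The probe sets that did not stand for their gene gave another picture of the somatostatin receptors. The other SSTR3 probe set averaged 5.33 ± 0.25 in control, 5.37 ± 0.17 at the medium dose and 5.29 ± 0.22 at the high dose (SD, n = 12 each). Its fitted high-dose difference was -0.03 (SE 0.09), opposite in sign to the 0.10 of the chosen probe set. The other SSTR1 probe set averaged 4.82 ± 0.14 in control, 4.73 ± 0.10 at the medium dose and 4.84 ± 0.14 at the high dose. It fell under the filter and was fitted only without it, with differences of 0.02 (SE 0.05) at the high dose and -0.12 (SE 0.05) at the medium dose. Its high minus medium dose difference of 0.14 (SE 0.05) had the sign and nearly the size of the chosen probe set's 0.17. With the mean of both probe sets of each gene, high dose minus control was 0.08 for SSTR1 and 0.04 for SSTR3. Across the 36 arrays, after removal of group means, the 2 probe sets of SSTR1 correlated at r = 0.156 and those of SSTR3 at r = 0.123, given as a description.

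Both somatostatin receptors were measured near the dim end of the array, where ADORA1 was not. The filter left out probe sets with a mean under 4.92, and the SSTR1 mean of 5.02 was just above it, with 8 of 36 arrays below that level. The mean of SSTR3 was 5.76 and no array fell below. Each of the chosen SSTR1 and SSTR3 probe sets took only 7 different values over the 36 arrays, and ADORA1 took 8, so a difference of 0.10 is 1 rounding step. The mean of the 5993 probe sets under the filter, a measure of an array's dim signal added after the data had been seen, was 3.89 ± 0.03 in control, 3.90 ± 0.05 at the medium dose and 3.92 ± 0.04 at the high dose (SD, n = 12 each). SSTR1 rose with it over arrays (r = 0.546, permutation p = 0.00066, adjusted p = 0.00198 over 3 relations, rho = 0.561, permutation p = 0.00065), and r was 0.523 once the 2 arrays with the most extreme dim signal were dropped. For SSTR3 the relation was r = 0.358 (permutation p = 0.0314, adjusted p = 0.0314, rho = 0.342, permutation p = 0.0425, r = 0.42 without 2 arrays). ADORA1 ran the other way (r = -0.393, permutation p = 0.0184, adjusted p = 0.0276, rho = -0.367, permutation p = 0.0323, r = -0.347 without 2 arrays). Within the sets of 8 to 10 arrays none of these relations passed by exact permutation. There r ran from 0.384 (S2, n = 10, exact permutation p = 0.41) to 0.919 (S3, n = 8, exact permutation p = 0.111) for SSTR1 and from 0.432 (S3, n = 8, exact permutation p = 0.0556) to 0.645 (S4, n = 9, exact permutation p = 0.13) for SSTR3. In S3 neither somatostatin receptor could pass, because levels repeated by rounding left 0.0556 as the smallest exact permutation p within reach. For ADORA1 the sign was not the same in the sets, from -0.496 (S2, n = 10, exact permutation p = 0.413) to 0.303 (S4, n = 9, exact permutation p = 0.333). With this mean as a covariate, high dose minus control was 0.10 (SE 0.05) for SSTR1, 0.07 (SE 0.05) for SSTR3 and 0.14 (SE 0.07) for ADORA1, and medium dose minus control was 0.27 (SE 0.06) for ADORA1.

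**Figure D2:**
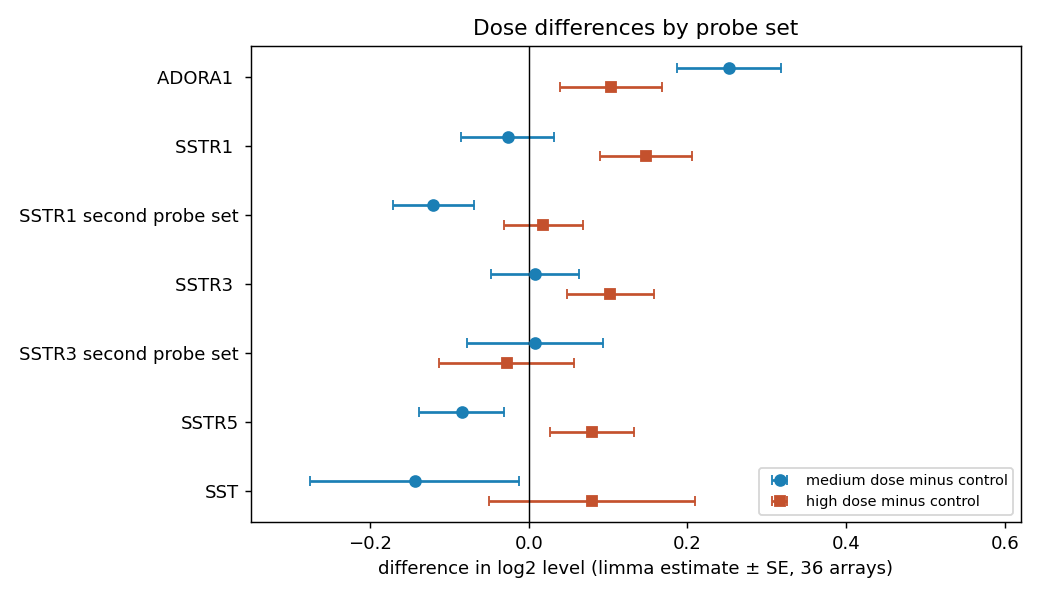
Fitted log2 difference from control (x axis, limma estimate ± SE over 36 arrays) at the medium dose (circles) and the high dose (squares) for each probe set of the 3 receptor genes (the dimmer one marked as second, that of SSTR1 fitted without the filter) and for SSTR5 and SST. At the high dose the chosen SSTR1 and SSTR3 probe sets sit at 0.15 and 0.10, and the other probe sets of the same genes at 0.02 and -0.03.

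Within set codes the ADORA1 difference at the medium dose had the same sign in all 4 sets that held both groups, while that at the high dose did not. The smallest medium dose minus control difference was that of S3 (0.13), followed by S2 (0.25), S4 (0.30) and S5 (0.35), from 2 to 4 arrays per group. In S4 all 3 medium-dose levels (8.5, 8.5 and 8.7) lay above all 3 control levels (8.1, 8.3 and 8.4). High dose minus control was positive in S1 (0.15), S2 (0.13), S3 (0.20) and S5 (0.30, where 1 high-dose array stands against 2 controls), but was -0.10 in S4. In S4 the high-dose levels were 8.1, 8.2 and 8.2. Without S4 high dose minus control was 0.17, against 0.10 with all sets, and high minus medium dose was -0.06, against -0.15.

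SSTR1 lay higher at the high dose than in control in all 5 set codes, most in S1 (0.25), S2 (0.23) and S3 (0.18) and least in S4 (0.03) and S5 (0.05). It was also higher than at the medium dose in all 4 sets that held both doses, by 0.12 to 0.20. At the medium dose it had both signs against control, from -0.15 in S5 to 0.07 in S3. SSTR3 high dose minus control was positive in S1 (0.25), S2 (0.20), S4 (0.10) and S3 (0.03) and negative in S5 (-0.15). These within-set values restate the contrasts that chose the genes and are no separate evidence for them.

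**Figure D3:**
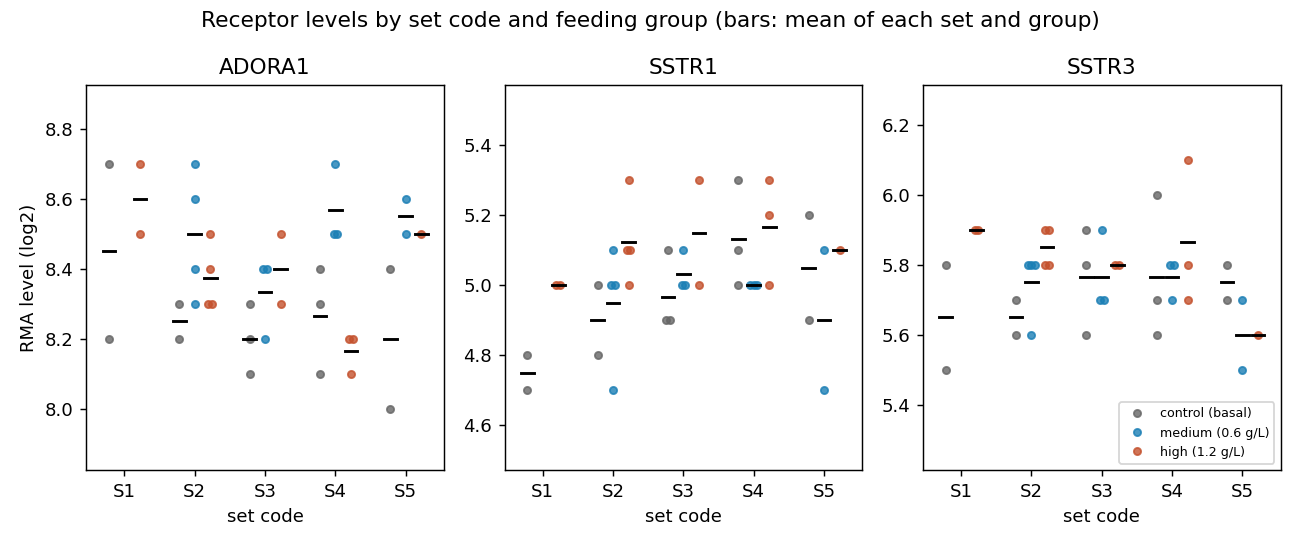
Log2 RMA level (y axis) of ADORA1, SSTR1 and SSTR3 by set code (x axis) and feeding group (control, medium and high dose from left to right within a set; S1 has no medium dose), with a point per array and a bar at each mean. ADORA1 medium-dose means are above control means in S2 to S5, and in S4 the high-dose mean (8.17) is below control (8.27).

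Set codes and their interaction with diet were not used to choose the genes, so both were tested. ADORA1 averaged from 8.30 ± 0.13 in S3 (n = 8) to 8.53 ± 0.24 in S1 (n = 4), with 8.40 ± 0.16 in S2 (n = 10), 8.33 ± 0.21 in S4 (n = 9) and 8.40 ± 0.23 in S5 (n = 5). SSTR1 averaged from 4.88 ± 0.15 in S1 to 5.10 ± 0.13 in S4, and SSTR3 from 5.66 ± 0.11 in S5 to 5.80 ± 0.16 in S4. The differences among set codes did not pass for any of the receptors in limma's F test with the feeding group in the model (adjusted p = 0.319 for ADORA1, 0.325 for SSTR1 and 0.781 for SSTR3), where 2.62% of probe sets passed and 17.4% were at an unadjusted p under 0.05. In the order of set means, neighbours differed by no more than 0.13 for any of the genes, close to or below the SD within sets. The lowest and highest set means of ADORA1 and of SSTR1 lay farther apart than most of these SDs. Before adjustment, limma's F test gave p = 0.0632 for ADORA1, 0.0663 for SSTR1 and 0.527 for SSTR3. The interaction of feeding group and set code over S2 to S5 did not pass either (limma adjusted p = 0.731 for ADORA1, 0.928 for SSTR1 and 0.88 for SSTR3). In that test 0.0167% of probe sets passed and 6.49% were at an unadjusted p under 0.05. On simulated data the interaction test recovered 0% of differences at the smallest fold simulated and 63.6% of 2-fold differences. That smallest fold was larger than the 1.19-fold of ADORA1 at the medium dose, the largest fitted dose difference of the receptors. The interaction test therefore cannot decide whether receptor dose differences of this size vary between set codes.

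A polyadenylated spike-in control, Dap, was present above a log2 value of 6 on 26 arrays and absent on 10, which the labels do not explain. On the 26 arrays with it alone, medium dose minus control for ADORA1 was 0.31 (SE 0.07). High dose minus control for ADORA1 was then 0.05 (SE 0.08), against 0.10 with all arrays, and high minus medium dose was -0.26 (SE 0.07), against -0.15. SSTR1 was at 0.16 (SE 0.08) and SSTR3 at 0.16 (SE 0.07) for high dose minus control on those arrays, SSTR3 thus over 1.5 times its value on all arrays.

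Several lists of cell type markers lay to 1 side of control in the dose contrasts. At the medium dose, where ADORA1 was highest, all 12 measured oligodendrocyte markers lay below 0 against control (list mean from 10.6 to 11.07 on the medium-dose arrays, against 10.5 to 11.83 on the control arrays), and so did all 7 microglia markers (7.7 to 8.41, against 7.91 to 9.0). Of the 11 neuron markers 8 lay above 0, with list means up to 11.58 at the medium dose and up to 11.55 in control. At the high dose, where SSTR1 and SSTR3 were highest, all 7 microglia markers lay below 0 (7.89 to 8.24, against 7.91 to 9.0 in control) and all 8 endothelial markers above 0 (6.6 to 7.05, against 6.51 to 7.20 in control). Of 8 astrocyte markers 2 lay above 0 at the medium dose and 3 at the high dose. Of 5 interneuron markers 4 and 3 did, and of 3 choroid plexus markers 2 and 1. Over all probe sets 50.3% lay above 0 at the medium dose and 49.7% at the high dose. Genes of a list were measured on the same arrays, so their signs are not independent. Each marker gene counted here passed the filter, which is not a call of detection. The endothelial markers FLT1 (mean 4.97) and SLCO1A2 (4.96) lay just above it, and FLT1 had the highest endothelial difference at the high dose (0.26). The part of these lists in the receptor differences was not tested. No marker passed over all probe sets in the dose contrasts, and the microglia marker CTSS passed the F test among set codes (limma adjusted p = 0.0407).

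Relations across the 36 arrays were computed on deviations from the feeding group means, which leave out the dose differences. SSTR1 and SSTR3 rose and fell together (r = 0.575, permutation p = 0.00048, adjusted p = 0.00672 over 14 relations), with r = 0.494 once the 2 arrays most extreme in SSTR1 were dropped. By rank the relation was weaker and did not pass (rho = 0.379, permutation p = 0.0272, adjusted p = 0.19). Among arrays of 1 set the correlation was 0.416 in S2 (n = 10, exact permutation p = 0.417), 0.528 in S3 (n = 8, exact permutation p = 0.333) and 0.926 in S4 (n = 9, exact permutation p = 0.0556). The test in S3 could not reach a p under 0.05, because rounding repeats levels of both genes there. It was r = 0.62 on the 26 arrays with the spike-in control (permutation p = 0.00173) and r = 0.297 on the 10 without it (exact permutation p = 0.546). After the mean of the dim probe sets was removed from both, r was 0.485 (adjusted p = 0.0342). Leaving out each array in turn gave r from 0.494 to 0.617 with adjusted p from 0.0035 to 0.0498. Between the other probe sets of these genes r was 0.359, and across the pairs of a chosen and an other probe set it was 0.381 and -0.0286, so the relation differed with the probe sets used.

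**Figure D4:**
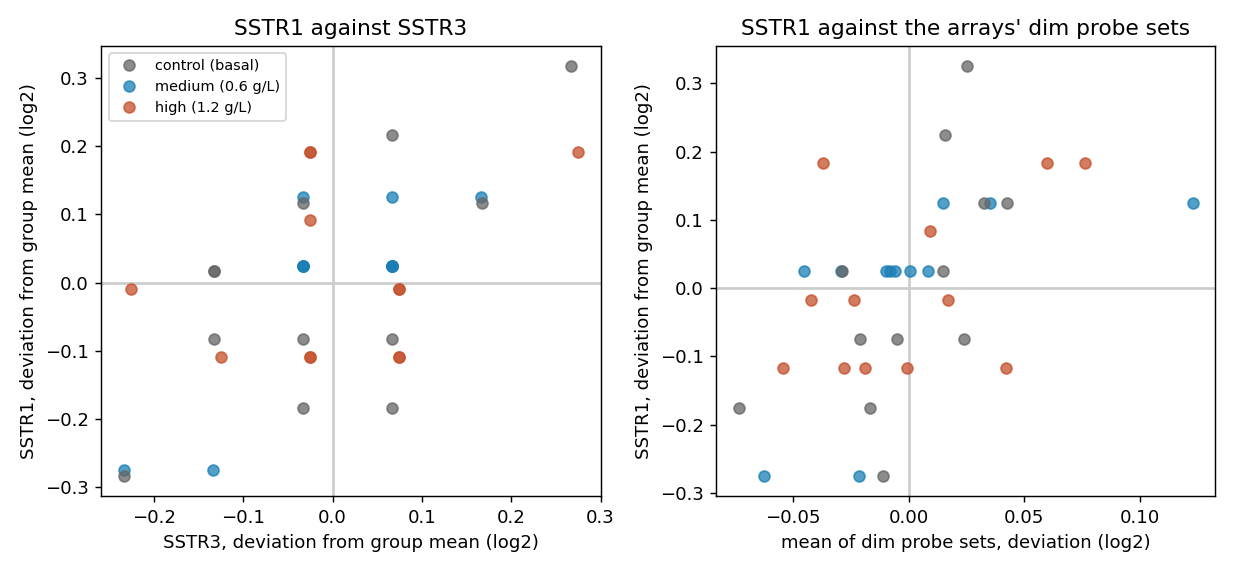
SSTR1 deviation from the feeding group mean (y axis, log2) against the SSTR3 deviation (left, x axis, log2) and against the deviation of the mean of 5993 dim probe sets (right, x axis, log2) for 36 arrays coloured by feeding group; in the left panel groups are shifted by 0.008 along both axes to part overlapping points. SSTR1 rises with SSTR3 (r = 0.575) and with the dim probe sets (r = 0.546).

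The other 13 relations did not pass. ADORA1 and SSTR1 ran in opposite directions (r = -0.399, permutation p = 0.0234, adjusted p = 0.144, rho = -0.448, permutation p = 0.0075, adjusted p = 0.105). In set S2 this relation was r = -0.744 (n = 10, exact permutation p = 0.0382), but it was -0.0461 in S3 (n = 8, exact permutation p = 1) and 0.463 in S4 (n = 9, exact permutation p = 0.444), so its sign was not the same in the sets. Of 36 fits that each left out 1 array, 1 passed, that without control replicate 8 (r = -0.503, permutation adjusted p = 0.0272). At the other end, r was -0.346 without control replicate 2, and the permutation adjusted p was 0.267 without high-dose replicate 2. ADORA1 and SSTR3 were at r = 0.0239 (permutation p = 0.905). ADORA1 rose with the oligodendrocyte marker mean (r = 0.378, permutation p = 0.0308, adjusted p = 0.144, rho = 0.301, permutation p = 0.0804), but r was 0.174 once the 2 arrays most extreme in ADORA1 were dropped and 0.224 without high-dose replicate 2 alone. With the neuron marker mean ADORA1 was at r = -0.068 (permutation p = 0.711), or 0.217 without high-dose replicate 2. SSTR1 and SSTR3 were at r = -0.0458 (permutation p = 0.806) and -0.134 (permutation p = 0.465) with SST, the gene of their ligand, and at -0.019 and -0.0062 with the mean of 5 interneuron markers.

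The genes most like each receptor were sought among 6033 others by Pearson r over 36 arrays, after the group and set code fit was removed. For ADORA1 they were APPBP2, which binds the amyloid precursor protein (r = 0.702), the autophagy receptor OPTN (0.601), the splicing factor SLU7 (0.599), the methyl-CpG binding protein MBD2 (0.594) and RPN1, a subunit of the oligosaccharyltransferase (0.585). Lowest were RGS16, a GTPase-activating protein for Gi-class G proteins (-0.632), ITIH1 (-0.591) and UPTI (-0.582). For SSTR1 they were the ubiquitin ligase RNF149 (0.727), FXYD3, a regulator of the sodium pump (0.679), HYAL3 (0.657), the lysosomal sulfatase GALNS (0.654) and SSTR3 (0.641), and lowest were the histone chaperone ASF1A (-0.691), the selenoprotein SELENOF (-0.64) and the stress-induced GADD45A (-0.621). For SSTR3 the most alike gene was SSTR1 (0.641), before the muscle acetylcholine receptor subunit CHRNA1 (0.609), the gut peptide GUCA2A (0.608), the homeobox gene GSC (0.598) and MDGA1 (0.595). Lowest were B3GNT3 (-0.53), MRC1 (-0.507) and SRGN (-0.506). The 5 genes most like SSTR3 all had mean levels between 5.02 and 5.54, in the dim part of the array. Among the least alike, B3GNT3 (5.19) and MRC1 (5.23) were as dim and SRGN (6.51) was not. The part of low signal in these likenesses was not tested. The genes ranked here are the extremes of many, and 5% of genes had an r above 0.387 for ADORA1, 0.362 for SSTR1 and 0.309 for SSTR3.

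Of the 4 other tested genes of the somatostatin system, SSTR5 and SST lay lower at the medium than at the high dose, as SSTR1 did. PCSK1 and PCSK2 went the other way, with high minus medium dose at -0.32 (SE 0.22) and -0.03 (SE 0.08). Thus 2 of 4 lay above 0 in that contrast, against 50.3% of all probe sets. SSTR5, another receptor of the family, averaged 7.73 ± 0.14 in control, 7.66 ± 0.12 at the medium dose and 7.81 ± 0.12 at the high dose (SD, n = 12 each). Its differences were -0.08 (SE 0.05) for medium dose minus control, 0.08 (SE 0.05) for high dose minus control and 0.16 (SE 0.05) for high minus medium dose. The last was the 1 list gene of 4 higher at an unadjusted p under 0.05 in that contrast (limma p = 0.00434, adjusted p = 0.811), where 2.48% of probe sets were higher and 3.49% lower. The other SSTR5 probe set averaged 4.50 ± 0.13 in control, 4.51 ± 0.14 at the medium dose and 4.51 ± 0.22 at the high dose, and did not show it. SST, the ligand gene, averaged 10.67 ± 0.34 in control, 10.53 ± 0.33 at the medium dose and 10.75 ± 0.31 at the high dose, with differences of -0.14 (SE 0.13) and 0.08 (SE 0.13) from control. The prohormone convertases that cut such peptides out of their precursors were at 0.27 (SE 0.22) and -0.04 (SE 0.22) for PCSK1 and at 0.11 (SE 0.08) and 0.08 (SE 0.08) for PCSK2, medium dose first. None of the 4 genes passed over all probe sets in either dose contrast, and none was at an unadjusted p under 0.05 there. The list median was 0.0138 at the medium dose and 0.079 at the high dose, against medians over all probe sets of 0.000615 and -0.00049.

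Genes that handle adenosine lay to both sides of control at the medium dose, where ADORA1 was highest. Of 21 listed genes 7 could be named on the array and 6 tested, and 3 lay above 0 and 3 below in each dose contrast against control. The kinase ADK, which clears adenosine by phosphorylation, was at 0.07 (SE 0.07) at the medium dose and -0.03 (SE 0.07) at the high dose. AHCY, which forms adenosine from S-adenosylhomocysteine, was at 0.05 (SE 0.05) and 0.03 (SE 0.05), and the nucleotidase NT5C2 at -0.01 (SE 0.05) and -0.07 (SE 0.05). The ectonucleotidase ENTPD1, which starts the breakdown of extracellular ATP, varied most, at -0.09 (SE 0.22) and -0.17 (SE 0.22). The transporter SLC29A1 was at -0.07 (SE 0.07) and 0.01 (SE 0.07), and PNP, which degrades the inosine made from adenosine, at 0.11 (SE 0.08) and 0.00 (SE 0.08). None was at an unadjusted p under 0.05, and the medians were 0.0177 and -0.0109. DPP4, which anchors adenosine deaminase, lay under the filter at 4.27. The probe sets for ADORA3 name another gene too and were not used. Between set codes NT5C2 passed the F test (limma adjusted p = 0.0326), with means from 9.25 ± 0.13 in S1 (n = 4) to 9.59 ± 0.08 in S4 (n = 9), and ADK, from 6.71 ± 0.16 in S3 (n = 8) to 7.13 ± 0.22 in S1 (n = 4), did not (limma adjusted p = 0.0797).

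Downstream of the receptors, 19 of 47 listed Gi/o transducers and effectors were tested, and none passed over all probe sets in limma's dose contrasts. In the F test among set codes the potassium channel subunit KCNJ5, named after its value was seen, passed (limma adjusted p = 0.033). At the medium dose 10 lay above 0 and 9 below, with 1 higher and 1 lower at an unadjusted p under 0.05, where 3.78% of probe sets were higher and 3.15% lower. These were the potassium channel subunit KCNJ3 (0.19, SE 0.08) and the inhibitory G protein subunit GNAI1 (-0.18, SE 0.08), both named after their values were seen. At the high dose 8 lay above 0 and 11 below, and 1 was lower at an unadjusted p under 0.05, where 2.77% of probe sets were higher and 2.17% lower. That was the receptor kinase GRK5 (-0.21, SE 0.08). The 3 largest differences by size were those of RGS4, RGS14 and RGS10 at the medium dose and of RGS4, GRK5 and RGS10 at the high dose. The RGS genes encode regulators of G protein signalling, which speed GTP hydrolysis by Gi-class subunits. RGS4 was at -0.29 (SE 0.20) at the medium dose and -0.27 (SE 0.19) at the high dose, RGS10 at -0.20 (SE 0.11) and -0.20 (SE 0.11), and RGS14 at 0.23 (SE 0.18) and 0.01 (SE 0.18), medium dose first. The list median was 0.00036 at the medium dose and -0.034 at the high dose.

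Of 36 other listed receptors that couple to Gi/o, 10 were tested, and none passed over all probe sets in limma's dose contrasts. At the medium dose 6 lay above 0 and at the high dose 8, against 50.3% and 49.7% of all probe sets, and the list medians were 0.0868 and 0.0333. P2RY12, the ADP receptor of microglia, was the 1 gene at an unadjusted p under 0.05 in each contrast and was lower, by -0.27 (SE 0.11) and -0.35 (SE 0.11). Over all probe sets 3.78% were higher and 3.15% lower at the medium dose, and 2.77% and 2.17% at the high dose. P2RY12 is also among the 7 microglia markers counted above. The neuropeptide Y receptors NPY2R and NPY1R were at 0.21 (SE 0.16) and 0.17 (SE 0.13) at the medium dose and at 0.12 (SE 0.15) and 0.01 (SE 0.13) at the high dose. The dopamine receptor DRD2 was at 0.08 (SE 0.11) and 0.15 (SE 0.10).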

How the data were processed

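Deposited values were log2 levels per probe set, which per the submitters' processing notes the authors made with Affymetrix Expression Console 1.1 (RMA), and were rounded to 0.1. The table held 23999 probe sets and 124 array controls, which were left out. Array annotation of 2016 gave 1 symbol to 10069 probe sets, several to 198 and none to 13732. Of the probe sets with 1 symbol, 9961 were matched by gene ID to RefSeq. Probe sets with a mean under the 25th percentile (4.92) were left out, which left 18006. Groups and set codes were compared with limma 3.58.1 in R 4.3.3 (lmFit, eBayes, feeding group plus set code, all 36 samples), with Benjamini-Hochberg adjustment over 18006 probe sets, threshold 0.05, two-sided. Differences are the first named group minus the second. Relations used two-sided permutation within feeding groups (100000 resamples, or all orders for 10 arrays or fewer). Python 3.11.15 drew the figures. The fits were tested on simulated data.

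Members, lists and tests were chosen with earlier results of these data known. Named were the 3 receptors, every tested gene of the adenosine and somatostatin lists, the 3 largest differences per dose in both Gi/o lists, and the 5 most and 3 least alike genes. Marker lists covered neurons, interneurons, oligodendrocytes, astrocytes, microglia, endothelium and choroid plexus. Limma's p-values set a difference against the spread between these samples, moderated over the tested probe sets. Permutation p-values come from reordering arrays within feeding groups. Replicate numbers were checked for pairing, and arrays were compared for duplicates (0 identical pairs). Alternatives covered blocks, filters, normalization, probe set choice, sets and arrays left out.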

Additional observations from a re-analysis of the deposited data

How the results depend on the processing

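Dose estimates of the 3 receptors moved by less than 1 SD of single arrays under every alternative run. That SD is near or above the high-dose differences themselves, so a shift within it could remove such a difference. With the mean of both probe sets, the high-dose differences of SSTR1 and SSTR3 were smaller, as given above. ADORA1 at the medium dose ran from 0.22 to 0.28 when each sample was left out in turn, and at the high dose from 0.07 to 0.13, being lowest without control replicate 1. SSTR1 at the high dose ran from 0.13 to 0.17 and SSTR3 from 0.08 to 0.13. The 0 probe sets called for medium dose minus control became 11 with those 2 groups fitted alone and 4 without set S1, and no receptor was among the 11. For set codes, 472 probe sets were called, but 0 with a replicate block added. Replicate numbers run in order through the set codes within each feeding group, so that block takes up part of the set differences. The 3 called for the interaction became 0 with S2 to S4 only. Same-numbered samples deviated together no more than others did in the median (36 pairs, r from -0.447 to 0.306). The check gave no sign that the numbers pair the samples, but it cannot exclude a pairing. With a replicate block instead of sets, 0 probe sets were called in each dose contrast, and the high-dose differences were 0.11 for ADORA1, 0.14 for SSTR1 and 0.11 for SSTR3. With both blocks high dose minus control was 0.21 for SSTR1 and 0.15 for SSTR3, and high minus medium dose was 0.27 for SSTR1 (0.17 with the set block) and 0.16 for SSTR3 (0.09). With the mean of the dim probe sets removed, the oligodendrocyte marker mean passed with ADORA1 (r = 0.524) and with SSTR1 (r = -0.458), a setting added after seeing the data, and the cause was not tested. The filter at the 50th percentile left out SSTR1 and SSTR3. Low signal over background limits SSTR1 and SSTR3, and rounding to 0.1 limits all 3.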
